A study of Mus musculus with 4 samples.

Results

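The antiviral interferon-stimulated effector genes are described here across 4 RNA-seq libraries of mouse 3T3 cells. They were taken from a list of 48 gene symbols, matched to the Ensembl identifiers of the deposited table. Of these, 47 had a row among the 12208 genes of the table, and Ifitm1 was not analysed here. All 47 passed the filter on low values, a mean of at least 1 CPM (counts per 1000000) over the 4 libraries, together with 12113 other genes. The groups were 3T3 cells given recombinant LTα1β2 for 48 h, control cells at 48 h, 3T3 cells given recombinant LTα1β2 for 24 h, and control cells at 24 h, with 1 library in each. LTα1β2 is the membrane-type lymphotoxin, called rhLTα1β2 in the title of the series. The labels call 3T3 a pre-osteoblast line, do not say which of the several 3T3 lines it is, and name the control NC, without saying what the control cells received. All 4 libraries came from this 1 cell line, and nothing says whether treated and control cultures were grown side by side.

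Type I interferons are secreted by cells that sense foreign nucleic acid. They signal through the receptor IFNAR and the kinases JAK1 and TYK2 to a transcription factor complex that holds STAT2 and IRF9 and binds the interferon-stimulated response element in the promoters of its target genes. Many of these targets encode proteins that block single steps of a viral life cycle, such as entry, translation or release, and many cells keep a low level of them without infection. LTα1β2 itself acts on another receptor, the lymphotoxin β receptor, which signals through NF-κB. The question put to these genes was how far they differed between treated and control cells at each time, and what the passage of time alone did to them in control cells.

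The library of treated cells at 48 h stood apart from the others. Its log2(CPM + 1) values correlated with those of the other 3 libraries at Pearson's r from 0.974 to 0.982 over 12160 genes, while the other libraries correlated with each other at 0.991 to 0.995. Its reads came from shorter transcripts, with a median length over reads of 3127 bases, against 3588 to 3659 bases in the others, and its genes with short transcripts had higher 48 h folds than those with long ones (Spearman's rho -0.444 over 12157 genes). Depth was between 11355974 and 15995777 reads per library. Of the markers set to check the label, 7 of 9 osteoblast lineage genes had a row, and Alpl and Ibsp were not analysed here. Col1a1 was at 7356 to 15684 CPM. Of the genes more specific to osteoblasts, Runx2 was at 67.5 to 126 CPM. The others were lower, with Sp7 at 7.93 to 35.1 CPM, Dmp1 at 3.54 to 13.1 CPM and Bglap at 1.13 to 1.33 CPM. The summed level of the 7, nearly all from Col1a1, Col1a2 and Sparc, was 20467 CPM in treated and 34894 CPM in control cells at 48 h, and 25248 CPM in treated and 35940.1 CPM in control cells at 24 h. Of 9 leukocyte markers 4 had a row, with summed levels of 98.2 CPM in treated and 83.8 CPM in control cells at 48 h and 67.9 CPM in treated and 72.1 CPM in control cells at 24 h, most of it from Lyz2 at 53.9 to 82.9 CPM. Among those without a row were the defining leukocyte genes Ptprc, Cd3e, Itgam and Adgre1, and the same held for all of 4 endothelial and 4 epithelial markers. The part of these shifts in the values below was not tested, except that member folds with the length trend removed are given.

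Since the members are known targets of 1 transcription factor complex, their promoters were searched for its element. RefSeq promoter windows (GRCm38.p6, 250 bases before to 50 after the start of transcription) were given for 36 of the 47 members. The minimal letters of the response element, GAAA, any 2 bases and GAAA again, read on either strand, occurred in a window of 14 of these 36 members (38.9%), against 3.76% of 9238 tested genes and 3.99% of all 27025 genes of the promoter table. Members had 50 windows in all and the tested genes 11835. The letters of the gamma-activated sequence, TTC, any 3 bases and GAA on either strand, occurred in 10 of 36 members (27.8%), against 8.09% of tested genes. The κB letters, GGGA, any base and TTTCC on either strand, occurred in 0 of 36 members and in 0.455% of tested genes. At so low a share, 36 members are too few for 0 matches to set them apart from other genes. Matches of different elements may overlap. A match describes the letters in these windows and is not a measured site, and a window without a match says nothing of binding elsewhere.

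The 7 members that held the response element and were at least 2-fold higher in treated cells at 48 h are shown in order of that log2 fold, because they include Ifit3 and Ifit1, the members with the highest folds, and let the elements be compared. Each is a stretch upstream of the start, written 5′ to 3′ on the strand of the gene, with capitals marking bases that match the response element on either strand. The stretches are those of Ifit3 (chr19:34583365-34583424, plus strand), Ifit1 (chr19:34640777-34640821, plus), Ifit3b (chr19:34607761-34607820, plus), Rsad2 (chr12:26456555-26456580, minus), Isg15 (chr4:156200867-156200904, minus), Oas1a (chr5:120907526-120907553, minus) and Bst2 (chr8:71537579-71537610, minus).
Ifit3: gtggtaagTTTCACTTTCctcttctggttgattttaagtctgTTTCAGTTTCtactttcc
Ifit1: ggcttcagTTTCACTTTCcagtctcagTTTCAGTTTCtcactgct
Ifit3b: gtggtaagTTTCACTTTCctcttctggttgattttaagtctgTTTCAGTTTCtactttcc
Rsad2: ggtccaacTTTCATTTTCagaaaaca
Isg15: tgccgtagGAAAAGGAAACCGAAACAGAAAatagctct
Oas1a: cttctcggGAAATGGAAACTGAAAatct
Bst2: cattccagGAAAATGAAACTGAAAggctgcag
Ifit3, Ifit1 and Ifit3b each had 2 separate matches, of the same letters in the same order. The stretches of Ifit3 and Ifit3b were the same base for base, and their whole windows were 99.2% identical over 260 aligned bases. In Isg15 3 matches overlapped in a single run, in Oas1a and Bst2 2 matches overlapped, and Rsad2 had 1.

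At 48 h the members were higher in treated cells almost throughout, and at 24 h most differed less from control. The 48 h log2 fold, the difference of log2(CPM + 1), was above 0 in 46 of 47 members, against 40.7% of all tested genes, and its median was 0.75, against -0.09 over all tested genes. Summed over the 47 members, the level was 6711 CPM in treated and 3701 CPM in control cells at 48 h, and 4555 CPM in treated and 4038 CPM in control cells at 24 h. By the rule of at least 2-fold on this scale 17 members were higher at 48 h (1.86% of tested genes) and 0 were lower (0.715% of tested genes). The 24 h fold was above 0 in 41 of 47 members (54.9% of tested genes), with a median of 0.16 against 0.02 over all tested genes. In the members it ranged from -0.20 for Usp18 to 0.62 for Parp14. No member reached 2-fold at 24 h (0.345% of tested genes higher, 0.181% lower), and so 0 members did at both times (0.214% of tested genes). The median 48 h fold with the length trend removed was 0.75 too, and 14 of the 17 genes were still at least 2-fold, without Usp18, Oas1a and Bst2. The folds of both times were above 0 in 40 of 47 members (28.8% of tested genes), and they had opposite signs in 7 (37.9% of tested genes). Because each group had 1 library, the spread between replicates is unknown for every fold at 24 h or 48 h. Intervals in parentheses after a ratio of CPM are exact conditional binomial (Clopper-Pearson) 95% intervals. They cover counting error only, and reads without molecular identifiers are not independent molecules.

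**Figure D1:**
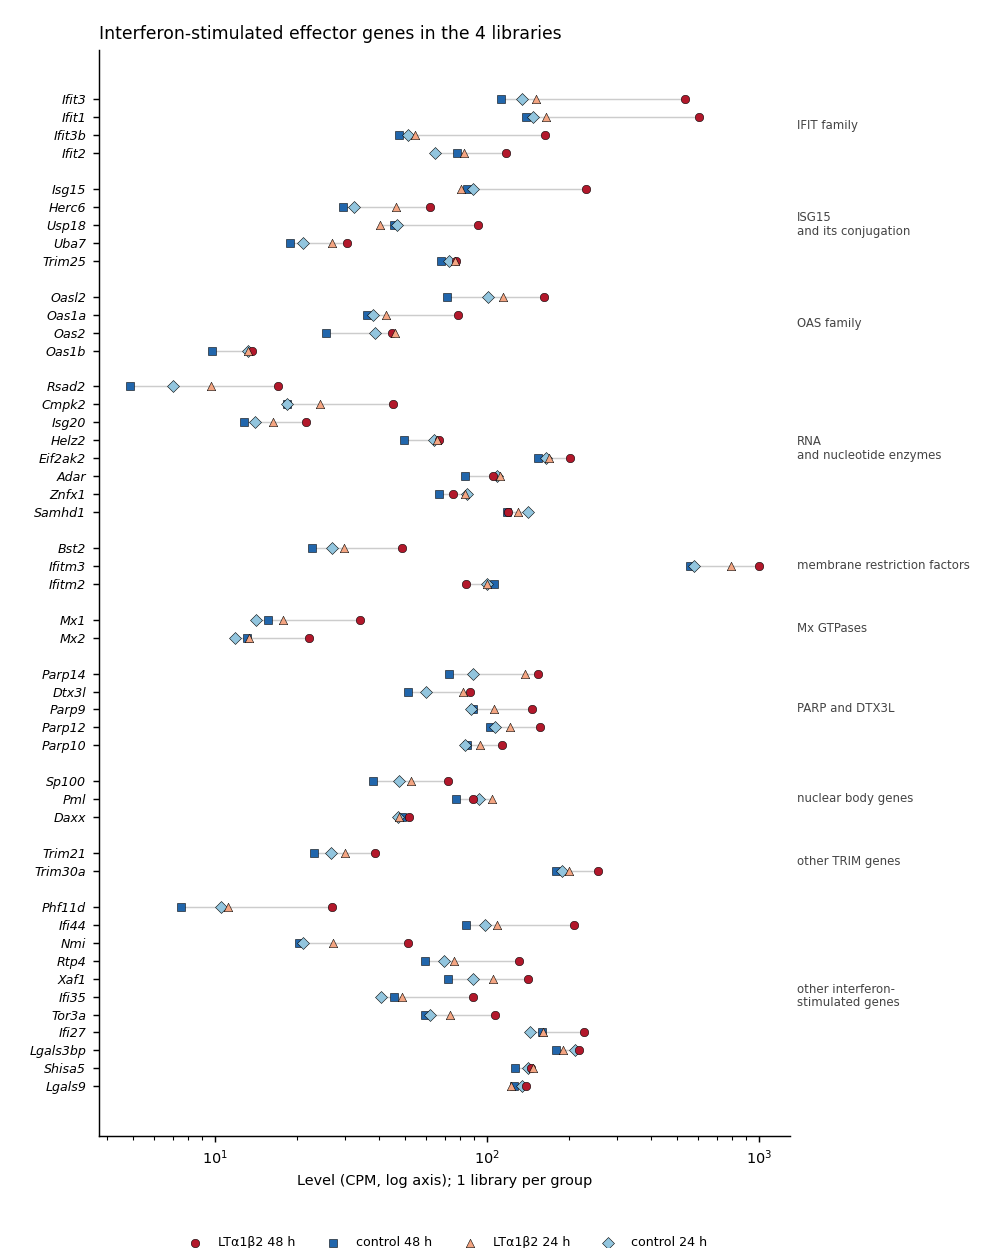
Level of each member in CPM on a log axis in the 4 libraries (1 library per group, no error bars), in rows grouped by role. The treated 48 h library is the rightmost point in most rows, for Ifit1 at 603 CPM. The other 3 libraries lie close together in some rows, such as Ifit1 (139 to 166 CPM), and apart in others, such as Parp14 (72.4 to 138 CPM).

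The IFIT proteins bind the ends of foreign RNA and block its translation, and Ifit3 and Ifit1 had the highest 48 h folds of the 47 members. Ifit3 (ENSMUSG00000074896.3; GRCm38 chromosome 19, 34583531 to 34588731, plus strand) was at 534 CPM in treated and 113 CPM in control cells at 48 h, and at 151 CPM in treated and 134 CPM in control cells at 24 h. Ifit1 (ENSMUSG00000034459.8; 34640871 to 34650009 of the same strand) was at 603 CPM in treated and 139 CPM in control cells at 48 h, and at 166 CPM in treated and 148 CPM in control cells at 24 h. For both genes the treated 48 h library lay far above the other 3, which spanned 113 to 151 CPM for Ifit3 and 139 to 166 CPM for Ifit1. The ratio of treated to control for Ifit3 was 4.72 at 48 h (4.46 to 5.0) and 1.13 at 24 h (1.06 to 1.19). That for Ifit1 was 4.33 at 48 h (4.12 to 4.57) and 1.12 at 24 h (1.06 to 1.18).

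Ifit3b, a copy of Ifit3 whose longest transcript is 98.0% identical to it over 1697 aligned bases, was at 163 CPM in treated and 47.7 CPM in control cells at 48 h, and at 54.3 CPM in treated and 51.5 CPM in control cells at 24 h, with ratios of 3.42 at 48 h (3.12 to 3.75) and 1.05 at 24 h (0.955 to 1.16). Reads of Ifit3 and Ifit3b can fall to either gene, depending on how the authors counted, so the split between them is uncertain. Ifit2, the fourth of the family, differed from the other 3: it was at 117 CPM in treated and 78.0 CPM in control cells at 48 h (1.5-fold, 1.38 to 1.63), and at 82.7 CPM in treated and 64.6 CPM in control cells at 24 h (1.28-fold, 1.18 to 1.39). Its windows did not hold the letters of the response element. The 4 genes lie near each other on the plus strand of chromosome 19, in the order Ifit2, Ifit3, Ifit3b and Ifit1, with 7111, 19238 and 27469 bases between them and 1 other gene of the table within each of the last 2 gaps.

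Isg15 and Usp18 were higher in treated cells at 48 h and lower at 24 h. Isg15 (chromosome 4, 156199424 to 156200818, minus strand) encodes a ubiquitin-like protein that is joined to other proteins. It was at 232 CPM in treated and 84.6 CPM in control cells at 48 h (2.74-fold, 2.56 to 2.94), and at 80.5 CPM in treated and 89.2 CPM in control cells at 24 h (0.902-fold, 0.835 to 0.975). Usp18, the protease that removes ISG15 and dampens IFNAR signalling, was at 93.2 CPM in treated and 45.6 CPM in control cells at 48 h (2.04-fold, 1.85 to 2.26), and at 40.5 CPM in treated and 46.6 CPM in control cells at 24 h (0.868-fold, 0.779 to 0.968). For both genes the treated 24 h library was the lowest of the 4 and the treated 48 h library the highest. Isg15 has a short transcript of 756 bases, and its 48 h log2 fold was 1.44, or 1.06 with the length trend removed.

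Herc6 and Uba7, which encode enzymes that attach ISG15, were above control at both times. Herc6, its ligase in mouse, was at 61.9 CPM in treated and 29.7 CPM in control cells at 48 h (2.08-fold, 1.84 to 2.37), and at 46.2 CPM in treated and 32.4 CPM in control cells at 24 h (1.43-fold, 1.27 to 1.60). Uba7, the activating enzyme, was 1.62-fold (1.37 to 1.91) and 1.28-fold (1.10 to 1.48) control at 48 h and 24 h. Trim25, a ubiquitin ligase of the RNA sensing pathway, had the lowest 48 h fold of the 5 genes of ISG15 and its conjugation, at 77.3 CPM in treated and 67.6 CPM in control cells at 48 h and at 76.3 CPM in treated and 72.4 CPM in control cells at 24 h.

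Of the OAS genes, which make the oligoadenylates that activate RNase L or are related to those that do, Oasl2 and Oas1a passed 2-fold at 48 h. Oasl2 was at 162 CPM in treated and 71.5 CPM in control cells at 48 h (2.27-fold, 2.10 to 2.46), and at 114 CPM in treated and 101 CPM in control cells at 24 h (1.13-fold, 1.06 to 1.21). Oas1a was at 78.4 CPM in treated and 36.4 CPM in control cells at 48 h (2.15-fold, 1.92 to 2.41), and at 42.8 CPM in treated and 38.2 CPM in control cells at 24 h (1.12-fold, 1.0 to 1.25). The control libraries of Oasl2 differed by nearly as much as its treated ones, whereas those of Oas1a lay together. Oas2 was at 44.8 CPM in treated and 25.7 CPM in control cells at 48 h, and at 46.0 CPM in treated and 38.8 CPM in control cells at 24 h, so that the control at 48 h was the library apart from the others. Oas1b, the lowest of the family by 48 h fold, was at 13.7 CPM in treated and 9.77 CPM in control cells at 48 h and at 13.3 CPM in both libraries of 24 h.

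Among enzymes that act on RNA and nucleotides, Rsad2 and Cmpk2 had higher 48 h folds than the other 6. Rsad2 encodes viperin, which makes a chain-terminating nucleotide, and Cmpk2 a mitochondrial nucleotide kinase. They are neighbours on chromosome 12, transcribed away from each other across a gap of 12751 bases. Rsad2 was at 17.1 CPM in treated and 4.89 CPM in control cells at 48 h (3.50-fold, 2.62 to 4.71), and at 9.68 CPM in treated and 7.0 CPM in control cells at 24 h (1.38-fold, 1.07 to 1.78). Cmpk2 was at 45.2 CPM in treated and 18.4 CPM in control cells at 48 h (2.46-fold, 2.10 to 2.87), and at 24.3 CPM in treated and 18.4 CPM in control cells at 24 h (1.32-fold, 1.13 to 1.54). Both pairs of treated and control values were apart at each time, and more so at 48 h. The exonuclease gene Isg20, the helicase genes Helz2 and Znfx1, Eif2ak2 for the RNA-activated kinase PKR, and Adar for the enzyme that edits adenosines in double-stranded RNA had 48 h ratios from 1.12 to 1.68 and 24 h ratios from 0.987 to 1.17. Adar overlaps Chrnb2 by 7252 bases, Eif2ak2 overlaps Gm26637 by 532 and Znfx1 overlaps Zfas1 by 82, each on the opposite strand. Samhd1, whose protein breaks down nucleotides needed for reverse transcription, had the lowest 48 h fold of the group, at 120 CPM in treated and 118 CPM in control cells at 48 h (1.01-fold, 0.940 to 1.09), and at 129.9 CPM in treated and 141 CPM in control cells at 24 h (0.920-fold, 0.865 to 0.978).

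The membrane restriction factors differed in direction at 48 h. Bst2, or tetherin, which holds budding virus at the cell surface, was at 48.8 CPM in treated and 22.8 CPM in control cells at 48 h (2.14-fold, 1.86 to 2.48), and at 29.9 CPM in treated and 26.9 CPM in control cells at 24 h (1.11-fold, 0.970 to 1.27). Its transcript has 792 bases, and with the length trend removed its 48 h log2 fold was 0.69, against 1.07 before. Ifitm3, which blocks entry from endosomes, was at 1002 CPM in treated and 559 CPM in control cells at 48 h (1.79-fold, 1.74 to 1.84), and at 792 CPM in treated and 576 CPM in control cells at 24 h (1.38-fold, 1.34 to 1.41). Per kilobase of its longest transcript Ifitm3 had the highest level of the 47 members, 1477 CPM per kilobase in treated and 825 CPM per kilobase in control cells at 48 h. Ifitm2, on the same chromosome 7 and strand, 53598 bases away, was the only member below control at 48 h. It was at 83.6 CPM in treated and 106 CPM in control cells at 48 h (0.787-fold, 0.724 to 0.856), and at 101 CPM in treated and 100.1 CPM in control cells at 24 h (1.0-fold, 0.936 to 1.08), so that the treated 48 h library was the lowest and the other 3 lay together. Its transcript has 655 bases, and its 48 h log2 fold was -0.34, or -0.75 with the length trend removed. A listed window of Ifitm2 also held the letters of the response element. The longest transcripts of Ifitm3 and Ifitm2 were 76.9% identical over 603 aligned bases.

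Of the Mx genes, GTPases that trap viral nucleocapsids, Mx1 was at 34.3 CPM in treated and 15.7 CPM in control cells at 48 h (2.19-fold, 1.84 to 2.60), and at 17.8 CPM in treated and 14.1 CPM in control cells at 24 h (1.26-fold, 1.05 to 1.51). Many inbred mouse strains carry a defective Mx1, and the allele of these cells was not examined. Mx2 was at 22.3 CPM in treated and 13.1 CPM in control cells at 48 h (1.70-fold, 1.39 to 2.07), and at 13.3 CPM in treated and 11.9 CPM in control cells at 24 h (1.12-fold, 0.917 to 1.38). Both genes were highest in the treated 48 h library, and the other 3 libraries lay within 14.1 to 17.8 CPM for Mx1 and 11.9 to 13.3 CPM for Mx2. Their longest transcripts were 81.3% identical over 1892 aligned bases.

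Parp14 had the highest 24 h fold of the 47 members. It encodes a mono-ADP-ribosyltransferase, and was at 154 CPM in treated and 72.4 CPM in control cells at 48 h (2.13-fold, 1.97 to 2.31), and at 138 CPM in treated and 89.2 CPM in control cells at 24 h (1.54-fold, 1.44 to 1.65). It was 1 member of 47 at or above 1.5-fold at 24 h (1.48% of tested genes), where 30 of 47 were so at 48 h (7.39% of tested genes). Its neighbours on chromosome 16, Dtx3l for a ubiquitin ligase and Parp9 for the partner of that ligase, were also above control at both times. Dtx3l was at 86.9 CPM in treated and 51.4 CPM in control cells at 48 h (1.69-fold, 1.53 to 1.87) and at 81.5 CPM in treated and 59.7 CPM in control cells at 24 h (1.37-fold, 1.25 to 1.49). Parp9 was at 146 CPM in treated and 88.9 CPM in control cells at 48 h (1.65-fold, 1.53 to 1.77) and at 106 CPM in treated and 87.1 CPM in control cells at 24 h (1.22-fold, 1.13 to 1.31). The Dtx3l and Parp9 genes overlap by 682 bases on opposite strands, and the sources used here do not state the strand setting of the count, so reads of the overlap could fall to either. Parp12 was 1.54-fold at 48 h and 1.14-fold at 24 h. Parp10, the lowest of this group by 48 h fold, was at 113 CPM in treated and 84.8 CPM in control cells at 48 h (1.34-fold), and at 94.1 CPM in treated and 83.0 CPM in control cells at 24 h (1.13-fold). Its gene overlaps Plec, at 659 CPM in treated and 924 CPM in control cells at 48 h, by 1401 bases on the same strand, so part of its reads is uncertain.

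Of the genes of PML nuclear bodies, Sp100 was at 72.2 CPM in treated and 38.2 CPM in control cells at 48 h (1.89-fold, 1.69 to 2.12), and at 52.6 CPM in treated and 47.5 CPM in control cells at 24 h (1.11-fold, 1.0 to 1.23). Pml itself had ratios of 1.15 at 48 h (1.05 to 1.26) and 1.12 at 24 h (1.04 to 1.2), nearly equal at both times. Daxx had the lowest 48 h fold of the 3, at 51.9 CPM in treated and 48.8 CPM in control cells at 48 h and at 47.5 CPM in treated and 47.1 CPM in control cells at 24 h, with counting intervals that include 1 at both times. Of the other TRIM genes Trim21, the receptor for antibody inside cells, was at 38.8 CPM in treated and 23.1 CPM in control cells at 48 h and at 30.2 CPM in treated and 26.8 CPM in control cells at 24 h. Trim30a was at 257 CPM in treated and 179.7 CPM in control cells at 48 h and at 199.8 CPM in treated and 189 CPM in control cells at 24 h. It has close relatives in the mouse genome with which it could share reads, as does Phf11d.

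The remaining 11 members have less settled roles, and 4 of them passed 2-fold at 48 h. Phf11d, a PHD finger gene, was at 26.9 CPM in treated and 7.48 CPM in control cells at 48 h (3.59-fold, 2.85 to 4.55), and at 11.1 CPM in treated and 10.6 CPM in control cells at 24 h (1.05-fold, 0.847 to 1.31). Ifi44 was at 209 CPM in treated and 84.1 CPM in control cells at 48 h (2.48-fold, 2.31 to 2.67), and at 109 CPM in treated and 98.7 CPM in control cells at 24 h (1.11-fold, 1.03 to 1.19). In both genes the control at 48 h was the lowest library and the treated one the highest. Nmi, which encodes a STAT-binding protein, was at 51.3 CPM in treated and 20.5 CPM in control cells at 48 h (2.51-fold, 2.17 to 2.91), and at 27.1 CPM in treated and 21.1 CPM in control cells at 24 h (1.28-fold, 1.11 to 1.49). Rtp4, of the receptor transporter family, was at 131 CPM in treated and 59.2 CPM in control cells at 48 h (2.21-fold, 2.03 to 2.42), and at 75.7 CPM in treated and 69.5 CPM in control cells at 24 h (1.09-fold, 1.0 to 1.18). The annotated Rtp4 gene overlaps Gm45338 by 39791 bases on its own strand and Masp1 by 525 bases on the other, so part of its reads is uncertain.

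Xaf1, of the XIAP-associated factor, and Ifi35, of a partner of NMI, lay just under 2-fold at 48 h, with ratios of 1.97 (1.82 to 2.14) and 1.97 (1.77 to 2.18), and had ratios of 1.18 and 1.19 at 24 h. Tor3a, an ATPase gene of the torsin family, was 1.81-fold at 48 h and 1.19-fold at 24 h, and Ifi27 1.43-fold and 1.12-fold. Shisa5 was at 146 CPM in treated and 127 CPM in control cells at 48 h and at 148 CPM in treated and 142 CPM in control cells at 24 h. Lgals9, of a galectin, and Lgals3bp, of a galectin-binding protein, were above control at 48 h and below it at 24 h. Lgals3bp was at 219 CPM in treated and 179.7 CPM in control cells at 48 h (1.22-fold, 1.15 to 1.29), and at 191 CPM in treated and 212 CPM in control cells at 24 h (0.903-fold, 0.859 to 0.950). Lgals9, the lowest of the 11 by 48 h fold, was at 139 CPM in treated and 126 CPM in control cells at 48 h (1.11-fold, 1.03 to 1.18), and at 123 CPM in treated and 135 CPM in control cells at 24 h (0.915-fold, 0.860 to 0.974). The 48 h log2 fold of Lgals9 was -0.01 with the length trend removed.

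The treatment fold was larger at 48 h than at 24 h in 46 of 47 members, Ifitm2 being the exception, against 38.4% of all tested genes. The difference of the 2 log2 folds had a median of 0.50 in the members and -0.10 over all tested genes. It was at least 1 in 9 members (1.06% of tested genes): Ifit3, Ifit1, Ifit3b, Phf11d, Isg15, Usp18, Rsad2, Ifi44 and Rtp4. For Ifit3 the ratio at 48 h was 4.20 times that at 24 h (3.87 to 4.55), for Ifit1 3.88 times (3.60 to 4.19), for Isg15 3.04 times (2.74 to 3.37) and for Usp18 2.35 times (2.03 to 2.73), with 95% intervals on the log scale from the 4 read counts. Such an interval lay above 1 in 43 members (14.6% of tested genes) and below 1 in 1, Ifitm2 (30.2% of tested genes), and it covers counting error only. Pml, Daxx and Trim25 had intervals that include 1. Across the 47 members the folds at 48 h and 24 h had a Spearman's rho of 0.402. These comparisons share no library, and members are not independent of each other.

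**Figure D2:**
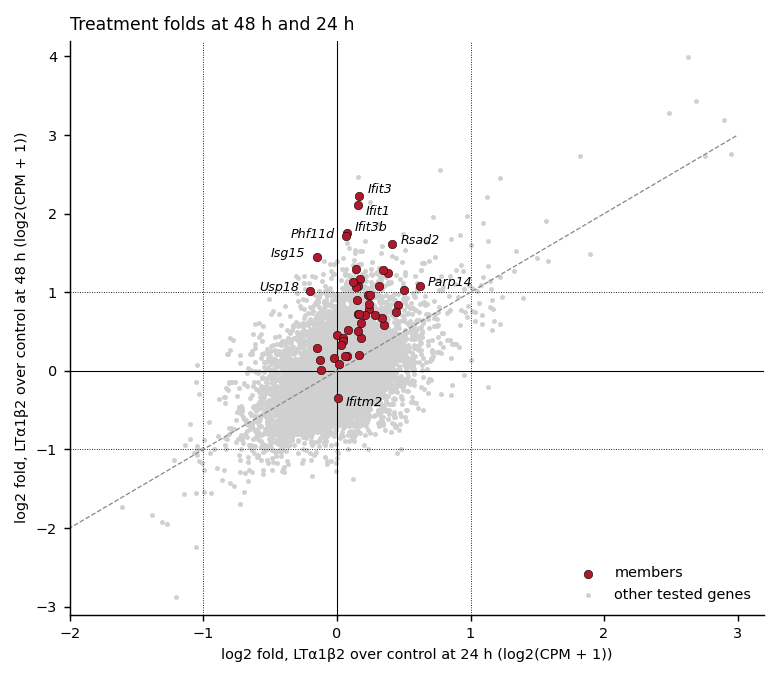
Log2 fold of treated over control at 48 h (vertical axis) against that at 24 h (horizontal axis) on the log2(CPM + 1) scale, for the 47 members and the other tested genes, 1 library per group. Dotted lines mark 2-fold and the dashed line equal folds; 46 members lie above the dashed line and 17 above 2-fold at 48 h, while none passes 2-fold at 24 h.

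In control cells most members had slightly lower levels at 48 h than at 24 h. The log2 change of 48 h over 24 h in control was below 0 in 38 of 47 members (54.2% of tested genes), with a median of -0.12 against -0.02 over all tested genes. It ranged from -0.58 for Oas2 to 0.27 for Ifit2. No member reached 2-fold in either direction in control, where 0.0329% of tested genes did. At least 1.25-fold lower, a limit set after the values were seen, were 8 of 47 members (7.07% of tested genes): Oas2, Oasl2, Phf11d, Rsad2, Oas1b, Adar, Helz2 and Znfx1. Oas2 was at 25.7 CPM in control cells at 48 h and 38.8 CPM in control cells at 24 h (0.661-fold), and Oasl2 at 71.5 CPM at 48 h and 101 CPM at 24 h (0.707-fold). The control change shares a library with each treatment comparison, so a lower control at 48 h by itself makes the 48 h fold larger.

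The treated libraries were therefore also set side by side, a comparison added after the values were seen. The median log2 change of treated cells at 48 h over treated cells at 24 h was 0.41 in the members, against -0.13 over all tested genes, and 40 of 47 members were above 0 (35.7% of tested genes). In this comparison 6 members were at least 2-fold higher (1.04% of tested genes): Ifit1, Ifit3, Ifit3b, Isg15, Phf11d and Usp18. Ifit1 was 3.64-fold and Ifit3 3.53-fold higher at 48 h than at 24 h in treated cells, and 0.939-fold and 0.842-fold in control cells. Isg15 was 2.88-fold and Usp18 2.30-fold in treated cells, and 0.948-fold and 0.977-fold in control cells. In Oas2, Adar, Znfx1, Samhd1, Pml and Shisa5 the level was lower at 48 h in both treated and control cells, with treated log2 changes from -0.24 to -0.02, and the control change was lower still in each of the 6. Ifitm2 alone had a lower level at 48 h in treated cells (0.831-fold) and a higher level in control cells (1.06-fold).

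**Figure D3:**
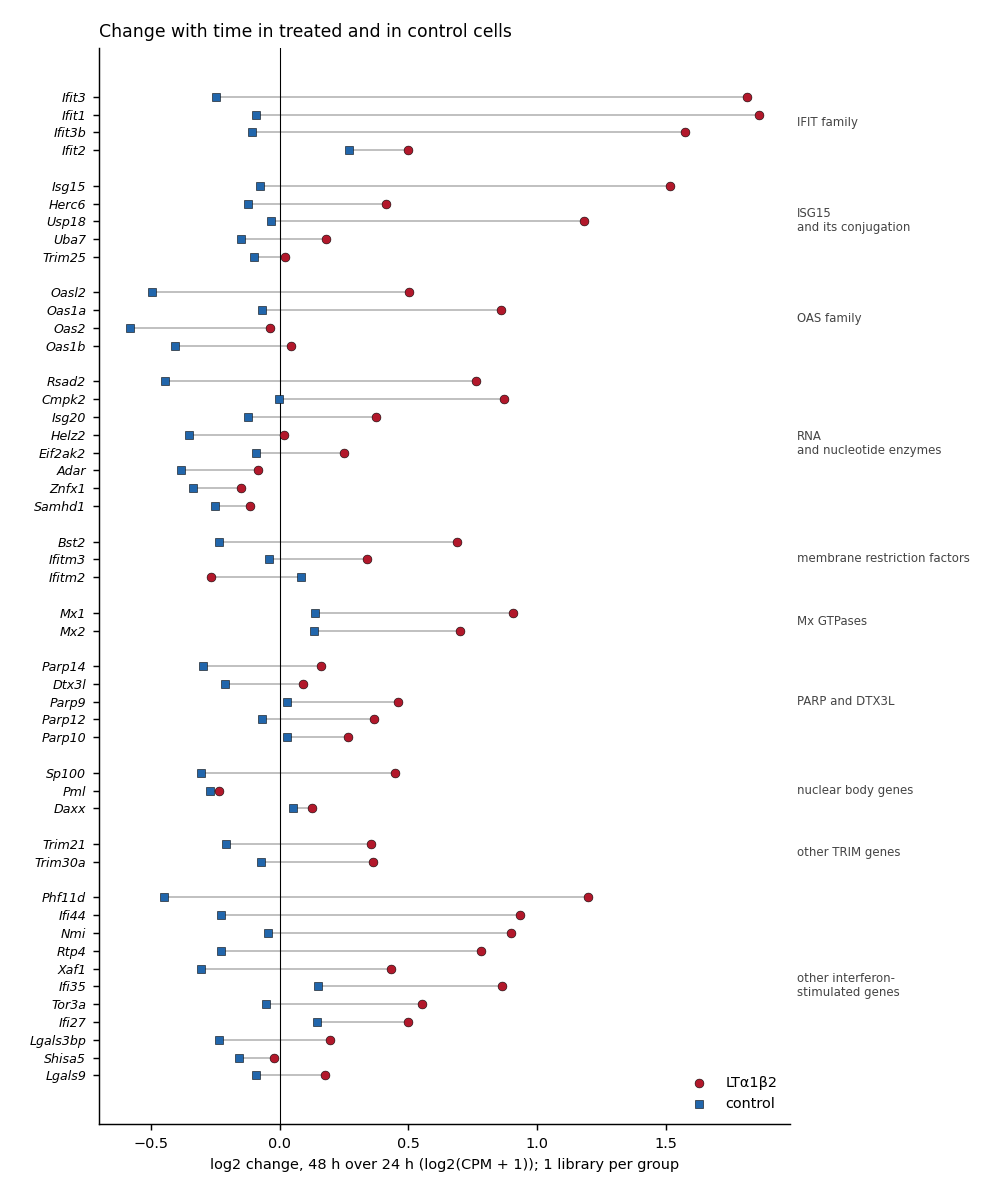
Log2 change of 48 h over 24 h for each member in treated cells (circles) and in control cells (squares), joined by a line whose length is the difference of the treatment folds, 1 library per group. Circles lie right of squares in every row except Ifitm2, and 38 squares lie left of 0.

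Transcript length is given beside the 48 h fold because short and long genes differed in the treated 48 h library. The members' median transcript length was 3123 bases, against 3355 bases over all tested genes, and 14 of the 47 lay in the shortest 2 of 10 classes of nearly equal size. Over the 47 members the 48 h fold had a Spearman's rho of -0.195 with transcript length. With the length trend removed the 48 h log2 fold of the long Parp14 (7417 bases) was 1.37, against 1.08 before, and that of Helz2 (10109 bases) 0.77, against 0.42 before. That of Ifitm3 (678 bases) was 0.44, against 0.84 before, and that of Ifi27 (977 bases) 0.18, against 0.51 before. Ifit3 was at 2.11, against 2.23 before, and Ifit1 at 2.11 both before and after.

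**Figure D4:**
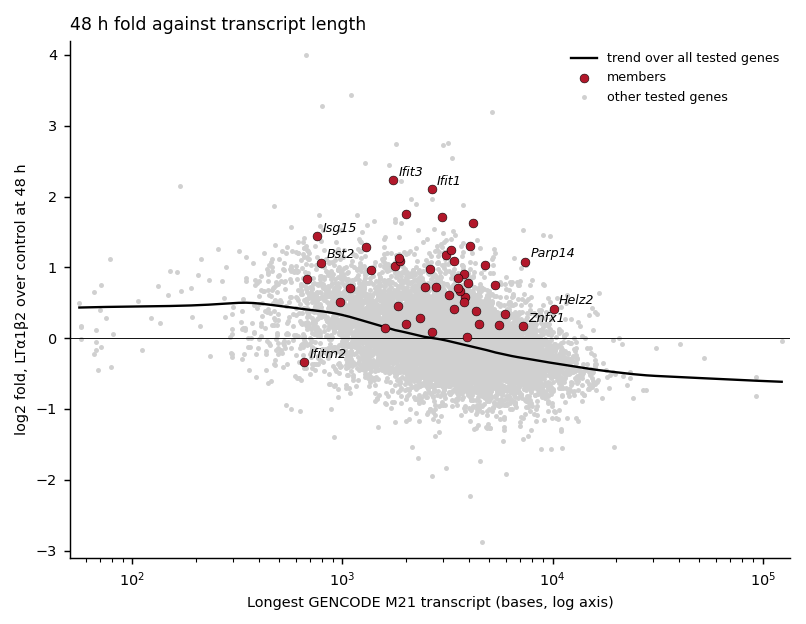
Log2 fold of treated over control at 48 h against the length of the longest GENCODE M21 transcript (log axis), for the 47 members and the other tested genes, with the trend over all tested genes as a line. The trend falls with length, and 46 of the 47 members lie above 0.

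Members with and without the letters of the response element in a listed window overlapped in their folds. At 48 h the median log2 fold was 0.95 in the 14 members with the letters (-0.34 to 2.23), 0.69 in the 22 without (0.02 to 1.72) and 0.78 in the 11 with no promoter entry (0.41 to 1.13). Of these, 7, 6 and 4 were at least 2-fold higher. The highest members without the letters in their windows were Phf11d, Ifi44, Nmi, Cmpk2, Oasl2 and Herc6. At 24 h the medians were 0.11, 0.17 and 0.18.

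**Figure D5:**
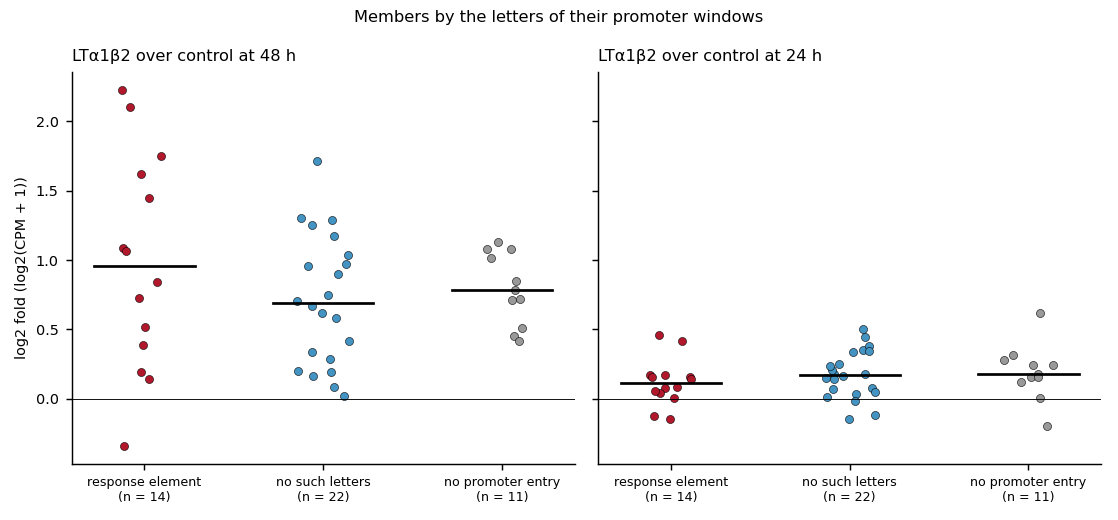
Log2 fold of treated over control at 48 h (left) and 24 h (right) of each member, by whether a listed promoter window holds the letters of the response element, lacks them, or has no entry in the table; horizontal bars are medians. The classes overlap at both times, and the highest folds at 48 h, those of Ifit3 and Ifit1, belong to members with the letters.

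A test over libraries was possible only by treating both times as repeats of 1 treatment effect (limma on log2(CPM + 1), time and treatment as terms, two-sided, adjusted over all 12160 genes at 0.05). What this fit takes as the spread of a gene is the difference between its treatment folds at 48 h and 24 h. That difference was above 0 in 46 of 47 members and may be partly technical. Separate cultures are not stated, and the p-values of this fit do not measure a spread between repeat cultures. In it 22 of 47 members rose (2.92% of tested genes) and 0 fell (2.27% of tested genes), with 32 (8.54% of tested genes) and 0 (7.72% of tested genes) at an unadjusted p of 0.05. These calls change with the estimate of spread. In that fit limma estimated infinite prior degrees of freedom, which replaces the spread of a gene by the trend over genes of like level. After median-of-ratios rescaling of the columns, where the prior degrees of freedom came to 9.8, 2 members passed (0.781% of tested genes): Herc6 (log2 fold 0.77 ± 0.17 SE before rescaling, adjusted p 0.0436 after it, limma) and Parp14 (0.85 ± 0.17, adjusted p 0.0181, limma). With the length trend removed 4 passed (1.5% of tested genes), Herc6, Parp14, Dtx3l and Ifit2, whose 24 h log2 folds were between 0.35 and 0.62. In fits to 3 libraries with no time term, 9 passed without the treated 48 h library (3.31% of tested genes), 0 without the control 48 h library (0.132% of tested genes, with 10 members at an unadjusted p of 0.05) and 1, Ifit3, without the control 24 h library (0.189% of tested genes). Without the treated 24 h library 35 members passed as higher (15.5% of tested genes) and 1, Ifitm2, as lower (25.2% of tested genes). Ifit3 and Ifit1, with log2 folds of 1.20 ± 0.17 and 1.13 ± 0.17 in the fit to all 4 libraries (adjusted p 9.56e-10 and 1.34e-08, limma), had adjusted p-values of 0.125 and 0.129 after the rescaling.

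Genes upstream of the members were read from lists of the interferon pathway. For these lists, calls of the fit that pools both times are given for its main setting only, with infinite prior degrees of freedom. None of 11 interferon ligand genes was analysed here. Of 5 interferon receptor genes, with median log2 folds of 0.17 at 48 h and 0.20 at 24 h, 0 were 2-fold higher at 48 h (1.86% of tested genes) or 24 h (0.345%). The fit that pools both times called 1 of them higher, Ifngr2 (2.92% of tested genes). Ifngr2, a chain of the interferon γ receptor, was 1.67-fold at 48 h (1.53 to 1.82) and 1.45-fold at 24 h, Ifngr1 was 1.13-fold and 1.40-fold, and Ifnar2 was 1.3-fold and 1.16-fold. Ifnar1, the other chain of the type I receptor, was below control at 48 h, at 0.886-fold (0.806 to 0.973), and was 1.14-fold at 24 h. Named with Ifnar1 after their values were seen, Jak1 was 0.906-fold (0.863 to 0.951) and Tyk2 0.892-fold (0.759 to 1.05) at 48 h. The 48 h log2 folds were -0.17 for Ifnar1, -0.14 for Jak1 and -0.16 for Tyk2, against a median of -0.09 over all tested genes. With the length trend removed they were -0.07 for Ifnar1, 0.03 for Jak1 and 0.01 for Tyk2, against a median of -0.02. Of 11 JAK, STAT and IRF genes, with medians of 0.44 and 0.06, 1 was 2-fold higher at 48 h (1.86% of tested genes) and 0 at 24 h (0.345%). The fit that pools both times called 2 of them higher, Irf1 and Irf7 (2.92% of tested genes). Irf7, a transcription factor gene that interferon induces, was at 102 CPM in treated and 47.2 CPM in control cells at 48 h (2.17-fold, 1.97 to 2.39), and at 54.3 CPM in treated and 51.9 CPM in control cells at 24 h (1.05-fold). Irf1, which NF-κB also induces, was 1.86-fold at 48 h (1.70 to 2.03) and 1.67-fold at 24 h, and Jak2, a kinase of the interferon γ receptor, was 1.36-fold and 1.48-fold. Stat2 and Irf9, of the complex that binds the response element and chosen after their values were seen, had 48 h log2 folds of 0.50 for Stat2 and 0.53 for Irf9, and 24 h log2 folds of -0.05 for Stat2 and -0.0015 for Irf9.

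Of 8 nucleic acid sensing genes, with median log2 folds of 0.08 and 0.15, 1 was 2-fold higher at 48 h (1.86% of tested genes). The fit that pools both times called 2 of them higher, Zbp1 and Dhx58 (2.92% of tested genes). Zbp1, a sensor of Z-form nucleic acid, was at 32.1 CPM in treated and 4.66 CPM in control cells at 48 h (6.90-fold, 5.25 to 9.21), and at 12.5 CPM in treated and 6.94 CPM in control cells at 24 h (1.81-fold). Dhx58 and Ifih1, of the RIG-I family, were 1.95-fold and 1.70-fold at 48 h and both 1.11-fold at 24 h. Of 5 genes that restrain interferon signalling, with medians of 0.03 and 0.13, 0 rose and 0 fell in that fit (2.92% and 2.27% of tested genes). At an unadjusted p of 0.05 (limma) these counts were 0 and 0 (8.54% and 7.72% of tested genes). At 48 h Socs3 was 1.13-fold, Ptpn2 1.25-fold and Pias1 0.721-fold (0.633 to 0.819). The transcript of Pias1 has 5564 bases, and its 48 h log2 fold was -0.46, or -0.25 with the length trend removed. In these bulk libraries, a difference in the number of cells that express a gene and a difference in RNA per cell cannot be told apart.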

How the data were processed

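Total RNA of 3T3 cells was made into 4 libraries with a kit that keeps RNA strand and sequenced as 150 bp pairs, per the labels' protocols. The authors deposited 1 table of CPM for 12208 genes. edgeR 3.30.0 is named in the submitters' processing notes. The aligner, the counter, their build and their strand setting: not given in the sources used here. The table lists 0 zeros, so genes silent in a library are not analysed here. The even spacing of the CPM values gave the reads behind them, whole within 0.01 of a read, used for counting intervals.

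GENCODE M21 (GRCm38) gave symbols, coordinates and lengths of transcripts, and may not be the authors' build; 12205 of 12208 identifiers matched without version. No column was left out. Promoters came from RefSeq (GRCm38.p6). Log2 folds use log2(CPM + 1) and a mean CPM of at least 1, which left 12160 genes. The length trend is a lowess curve (span 0.3, statsmodels 0.14.6) on log2 transcript length, subtracted per library. The additive fit (time and treatment as terms) used limma 3.58.1 (R 4.3.3). It was tested on simulated data with the same treatment fold at both times and no length trend. That check does not cover the unequal folds and the length trend of these data. Every member may be named, with values in each library for those at 2-fold and for the highest and lowest of each role group; up to 3 genes of each pathway list were named, by mean fold, and any at 2-fold. The members and lists were chosen with earlier results of these data known. Alternatives were other pseudocounts, filters, thresholds, scalings and fits.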

Additional observations from a re-analysis of the deposited data

Results flagged for a closer look

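In 7 of 47 members treated cells lay on opposite sides of control at the 2 times, with 1 library on each side, and the difference was not tested over samples. Of all tested genes 37.9% did so. The log2 fold at 48 h minus that at 24 h was 1.59 for Isg15, 1.21 for Usp18, 0.43 for Lgals3bp, 0.27 for Lgals9, 0.18 for Znfx1, 0.14 for Samhd1 and -0.35 for Ifitm2. Only Ifitm2 was below control at 48 h. Isg15 and Usp18, which encode a modifier and the protease that removes it, were the pair at least 2-fold higher at 48 h while below control at 24 h.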

How the results depend on the processing

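The 48 h count of 17 members at 2-fold was between 13 and 19 under other pseudocounts, filters, scalings and length-trend removal, and 30 at a threshold of 1.5-fold. At 1.5-fold 1 member passed at 24 h (1.48% of tested genes) and 1 at both times. The 48 h fold exceeded the 24 h fold by as much in 19 members (695 of 12160 tested genes), against 9 at 2-fold (1.06% of tested genes). Setting treated 48 h against treated 24 h, chosen after seeing the data, gave 6 members and a median of 0.41. The 22 members that rose in the additive fit were 2 after median-of-ratios rescaling and 4 with the length trend removed. With prior degrees of freedom of 9.8 instead, 39 of 12160 tested genes rose, and the members among them were 0. They were between 0 and 35 when 1 library was left out with no time term: 9 without treated 48 h (3.31% of all tested genes higher), 0 without control 48 h (0.132%), 35 without treated 24 h (15.5%) and 1 without control 24 h (0.189%). No member fold at 2-fold changed sign, and 621 of 658 member values moved by no more than one side of their counting interval; 21 of the other 37 moved with the length trend. The 41 members above 0 at 24 h were 38 after either rescaling. Behind Ifit3 and Ifit1 the order of 48 h log2 folds depends on the setting: Phf11d was at 1.72 and Ifit3b at 1.75, against 1.81 and 1.77 with a pseudocount of 0.25 and 1.74 and 1.67 with the length trend removed. The fit after TMM rescaling gave 18 members (240 of 12160 tested genes higher), and the count test on recovered reads was not run. The labels give no replicate numbers. With 1 library per group, treated and control libraries were paired only by time, as a term of the additive fit. Depth limits the precision of low genes such as Rsad2 and Phf11d.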
